A study of Mus musculus with 12 samples.

Results

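Grem1 encodes Gremlin 1, a secreted antagonist of bone morphogenetic proteins. In the limb bud it keeps BMP signalling low in the mesenchyme and so maintains the feedback loop between Sonic hedgehog from the posterior mesenchyme and fibroblast growth factors from the apical ectodermal ridge. Fmn1, its neighbour, encodes formin 1, an actin-nucleating protein, and the Fmn1 gene is known to harbour limb enhancers that act on Grem1 over a distance, so that some classical limb deformity mutations in mice disrupt the regulation of Grem1 rather than formin. The landscape described here is chr2:113150000-113750000 on mm9, 600 kb in which Fmn1 comes first and Grem1 lies near 113.59 Mb. Its members are all called peaks that overlap this interval in 7 peak lists, and they number 62 of the 189536 peaks in those lists.

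The lists came from chromatin immunoprecipitation and sequencing (ChIP-seq) of mouse forelimb buds, with 1 library per group. At E11.5 the distal part of the forelimb was used, from Hoxa13-/-;Hoxd13-/- embryos (called the double mutant here) and from wild-type embryos, both of mixed C57BL/6 and CD1 background, for H3K27ac and H3K27me3. The Hoxa13 mutant allele carries a neomycin cassette in the coding region and the Hoxd13 mutant allele a lacZ reporter in the first exon, and both are germline alleles that every cell of the embryo carries. HOXA13 and HOXD13, homeodomain transcription factors of the digit-forming part of the limb, were mapped in the E11.5 wild type with antibodies made in-house. H3K27me3 at E10.5 came from whole forelimb buds of CD1 embryos with an antibody from another supplier, so stage cannot be told apart from strain, antibody and part of the limb. H3K27ac marks active promoters and enhancers, and H3K27me3 is the mark that Polycomb repressive complex 2 lays down. The labels do not say whether embryos were pooled. No comparison has a replicate check, read depth is unknown from peak lists, and no p-value is given. The peak score is the authors' value from the peak caller, read here as a p-value's decimal logarithm times -10. It depends on depth and on the input library, so scores rank peaks within a list and are not compared between lists. A score of 3100 was given to 2754 double-mutant and 4439 wild-type H3K27ac peaks. For H3K27me3 at E11.5 it was given to 3170 double-mutant and 4549 wild-type peaks. It therefore does not rank these peaks among each other, and equal scores of 3100 do not show equal signal. Called, in what follows, means present in the deposited list.

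The promoter sequences of both genes are shown because the landscape's H3K27me3 in all 3 libraries included a peak near Grem1 and a peak at the end of the interval where Fmn1 is named, and CpG-rich promoters are a known target of Polycomb complexes. They are the 250 bases before each gene's RefSeq start on GRCm38.p6, 5′ to 3′ on the gene's own strand, with every CpG in capitals. The Grem1 promoter lies on the minus strand at chr2:113758649-113758898 and that of Fmn1 on the plus strand at chr2:113327486-113327735. These positions belong to GRCm38.p6 and cannot be set against the mm9 positions of the peaks, so no peak is placed on either sequence.
Grem1 promoter: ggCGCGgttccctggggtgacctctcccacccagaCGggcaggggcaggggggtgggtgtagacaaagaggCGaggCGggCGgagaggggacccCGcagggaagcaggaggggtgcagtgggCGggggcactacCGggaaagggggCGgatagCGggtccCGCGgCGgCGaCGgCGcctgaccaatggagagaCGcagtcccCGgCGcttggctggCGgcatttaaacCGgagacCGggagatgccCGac
Fmn1 promoter: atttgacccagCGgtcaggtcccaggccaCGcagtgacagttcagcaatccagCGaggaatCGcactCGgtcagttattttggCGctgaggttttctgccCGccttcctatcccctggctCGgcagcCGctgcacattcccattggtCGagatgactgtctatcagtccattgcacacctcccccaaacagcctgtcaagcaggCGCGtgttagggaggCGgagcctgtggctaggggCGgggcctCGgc
The Grem1 sequence held 24 CpGs with a GC content of 72.0%, and 12.0% of the 32851 RefSeq promoters had as many CpGs or more. For the Fmn1 sequence these values were 15 CpGs, 60.8% and 27.3%, and the median promoter had 6 CpGs. A second Fmn1 start in the table had 0 CpGs. The letters ATAAA and CNATAAA, the core of the sequence that HOX13 proteins are known to prefer, were searched on both strands, and each CNATAAA match also counts as an ATAAA match. Neither stood in any of these 3 sequences. ATAAA stood in 37.3% of all promoters and CNATAAA in 9.81%. No match says only that these letters are not in these 250 bases. In RefSeq on GRCm38.p6 the protein-coding genes run in the order Tmco5b, Fmn1, Grem1, Scg5 and Arhgap11a, with no other protein-coding gene between Fmn1 and Grem1.

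HOX13 binding was dense in the middle of the landscape and was not called in the stretch around Grem1. HOXA13 had 13 peaks and HOXD13 also had 13. Of the HOXA13 peaks 9 overlapped a HOXD13 peak by at least 1 bp, which is 69.2% (Wilson 95% interval 42.4 to 87.3%) against 63.9% of the whole HOXA13 list. The same 9 overlaps were 69.2% of the HOXD13 peaks, against 86.9% of the whole HOXD13 list. Both of these background shares lay within the interval of the landscape's share, which covers the counting of peaks only. Merging overlapping peaks of the factors gave 17 sites, of which 9 carried both factors, or 52.9% (31.0 to 73.8%), against 58.0% of sites over the genome. HOXA13 alone was called at 4 sites, or 23.5% (9.56 to 47.3%), against 33.2%. HOXD13 alone was also called at 4 sites, or 23.5% (9.56 to 47.3%), against 8.80%, and here the background lay below the interval. That difference was not tested, and 3 of these 4 sites had scores below 100.

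The 9 sites of both factors lay in a row, from chr2:113415669 to chr2:113534484, with none of the other 8 sites between them. This stretch is 118.8 kb long and ends 55.5 kb short of the position named for Grem1, on the Fmn1 side. Neighbouring sites of both factors were separated by 3.81 to 32.16 kb. The HOXA13-only sites lay at chr2:113300947-113301883, chr2:113337520-113338647, chr2:113375529-113376453 and chr2:113536298-113537131, with scores of 73.4, 196.0, 89.4 and 67.1. All 4 were on the Fmn1 side of Grem1. The HOXD13-only sites lay at chr2:113237532-113238495, chr2:113268317-113269309, chr2:113620799-113621901 and chr2:113688590-113689774, with scores of 61.0, 62.5, 69.9 and 341.6. The first 2 of these lay toward the Fmn1 end and the last 2 beyond Grem1.

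**Figure D1:**
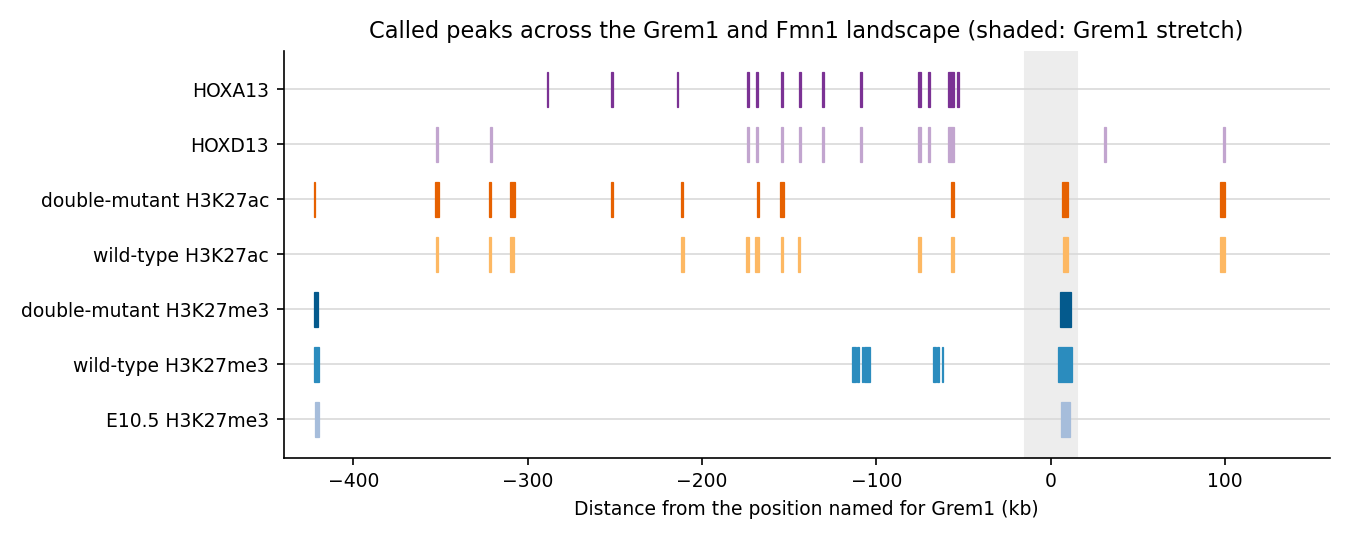
Called peaks in the 7 lists (rows) by distance from the position named for Grem1, in kb; each block is 1 peak drawn to scale, and the shaded band is the Grem1 stretch of 15 kb on each side. HOXA13 and HOXD13 peaks crowd between 174.3 and 55.5 kb on the Fmn1 side, and neither factor has a peak in the shaded band.

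The site with the highest scores of both factors was chr2:113531236-113534484, the last of the row and, among sites of both factors, the nearest to Grem1. Its HOXA13 peak had a score of 2350 and stood at rank 204 of 31044. Its HOXD13 peak had a score of 3089 and stood at rank 66 of 22655. At 2999 bp and 3249 bp these were also the widest peaks of either factor in the landscape. Second by the score of either factor was chr2:113513943-113515688, with 971.1 for HOXA13 and 1338 for HOXD13, higher than 95.5% and 97.2% of their lists. A weaker site of both factors, chr2:113519670-113520779, lay between it and the highest. The third by HOXA13 score was chr2:113420828-113422241, with 611.4 for HOXA13 and 514.4 for HOXD13, and the third by HOXD13 score was chr2:113445330-113446577, with 382.4 for HOXA13 and 531.6 for HOXD13. The other sites of both factors ranged from 177.3 to 597.1 for HOXA13 and from 179.0 to 438.5 for HOXD13. Of the 13 peaks of each factor 10 scored above the median of the whole list, which was 126.1 for HOXA13 and 133.4 for HOXD13.

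**Figure D2:**
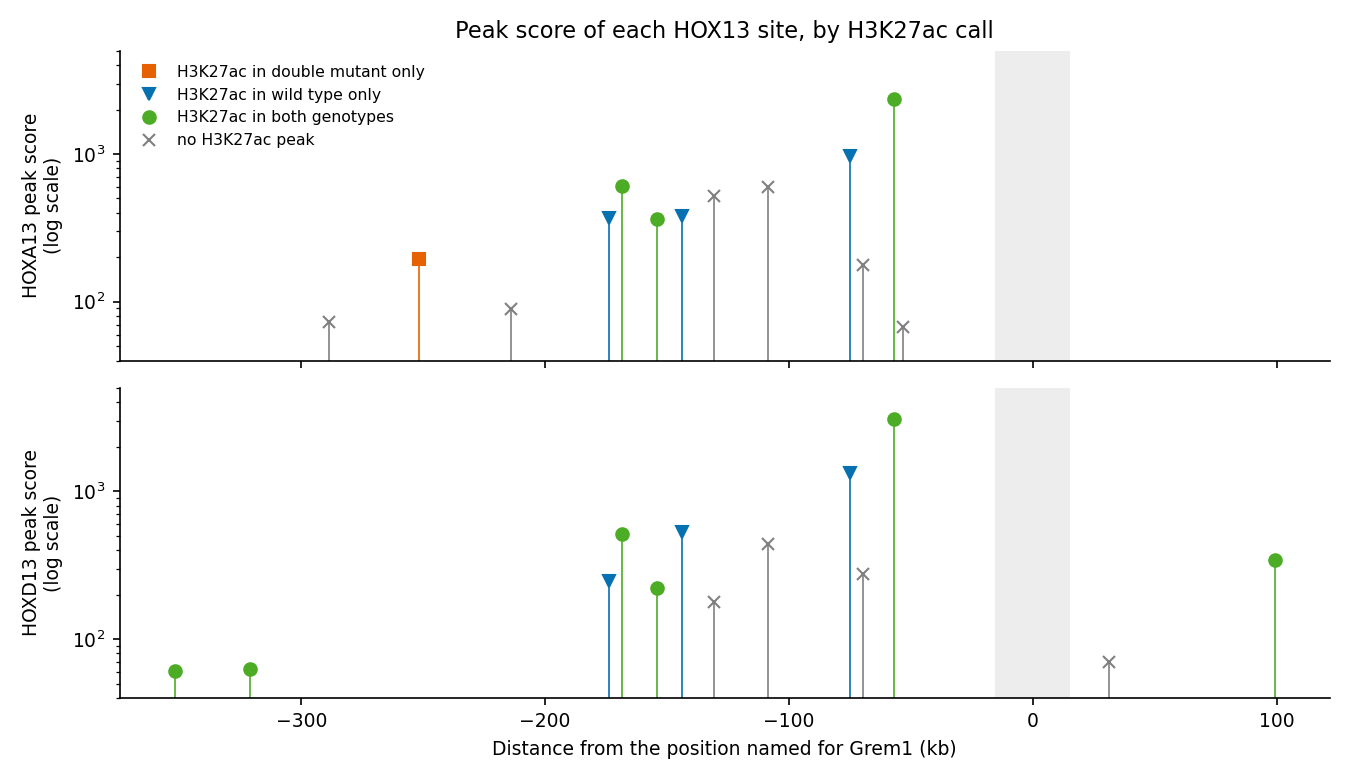
Score of the HOXA13 peak (upper panel) and HOXD13 peak (lower panel) at each site, on log axes, by distance from the position named for Grem1 in kb; symbols give the H3K27ac call at the site, and the shaded band is the Grem1 stretch. The highest score of either factor, 2350 and 3089, is at the site nearest to Grem1 among those of both factors, where H3K27ac was called in both genotypes.

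The Grem1 stretch, 15 kb on each side of the named position, held 1 peak of each of the 5 histone lists and no peak of HOXA13 or HOXD13. H3K27ac was called at chr2:113596662-113599649 in the double mutant (2988 bp, score 1687) and at chr2:113596906-113599633 in wild type (2728 bp, score 1095). These scores lay above 83.2% of the double-mutant list and 69.5% of the wild-type list. The wild-type H3K27ac peak lay wholly inside the double-mutant one. H3K27me3 was called there at chr2:113595371-113601660 in the double mutant (6290 bp, score 3100) and at chr2:113594177-113601968 in the E11.5 wild type (7792 bp, score 3100). At E10.5 it was called at chr2:113596126-113601277 (5152 bp, score 424.2). The E10.5 peak thus lay inside the double-mutant peak, and that one inside the wild-type peak. Peak width moves with depth and antibody, and its difference between libraries was not tested.

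Both marks were thus called over the same bases near Grem1, in either genotype. H3K27me3 covered 100.0% of the H3K27ac peak in the double mutant and 100.0% in wild type, while H3K27ac covered 47.5% of the H3K27me3 peak in the double mutant and 35.0% in wild type. Overlap of the marks in chromatin of a whole tissue does not show that they sit on the same allele or in the same cell. Of the 12 wild-type H3K27ac peaks in the landscape this was the single one that overlapped double-mutant H3K27ac and all 3 H3K27me3 lists, a share of 8.33% (1.49 to 35.4%) against 8.32% of the whole list. The nearest HOXA13 peaks stood 57.05 kb from the wild-type H3K27me3 peak on the Fmn1 side and 242.48 kb on the other side, outside the landscape. For HOXD13 these distances were 59.69 and 18.83 kb, the nearer being the HOXD13-only peak with a score of 69.9.

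The other H3K27me3 peak called in all 3 libraries lay at the Fmn1 end of the landscape. It ran over chr2:113167590-113169875 in the double mutant (2286 bp, score 1282), over chr2:113167587-113170141 in the E11.5 wild type (2555 bp, score 3100) and over chr2:113167704-113170075 at E10.5 (2372 bp, score 224.5). The 3 libraries thus placed it at nearly the same edges. In the double mutant an H3K27ac peak was called at its outer edge, at chr2:113167136-113168141 (1006 bp, score 121.7), and 54.9% of that peak lay in double-mutant H3K27me3. No wild-type H3K27ac peak was called there. Its score exceeded that of 31.6% of the double-mutant list, so it was among the weaker calls. Neither factor had a peak there.

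**Figure D3:**
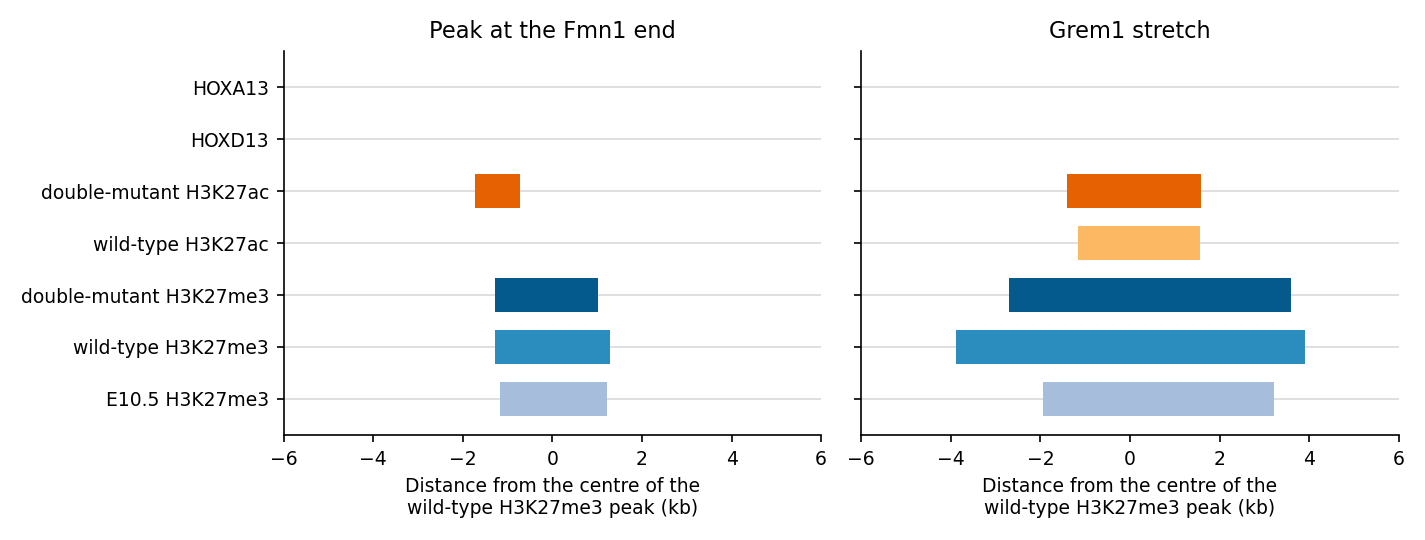
Peaks of the 7 lists (rows) around the H3K27me3 peak at the Fmn1 end (left) and in the Grem1 stretch (right), by distance in kb from the centre of the wild-type H3K27me3 peak; bars are peaks drawn to scale. In the Grem1 stretch the H3K27ac peaks of both genotypes lie inside H3K27me3, and at the Fmn1 end an H3K27ac peak was called in the double mutant and not in wild type.

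Across the landscape H3K27ac was called at 11 peaks in the double mutant, covering 21.4 kb, and at 12 peaks in wild type, covering 21.1 kb. At 9 places it was called in both genotypes. Wild type lacked 2 of the peaks called in the double mutant, which is 18.2% (5.14 to 47.7%) against 30.1% of the whole double-mutant list. Of the wild-type peaks 3 had no double-mutant peak, which is 25% (8.89 to 53.2%) against 15.1% of the whole wild-type list. Both intervals include the background, so neither number of peaks called in 1 genotype sets the landscape apart from the rest of the genome.

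All 3 wild-type peaks without a double-mutant peak lay on sites of both HOX13 factors. This holds for 3 of the 9 wild-type peaks also called in the double mutant, and so for 6 of all 12. They were chr2:113415215-113416784 (score 171.4), chr2:113445051-113446044 (score 113.8) and chr2:113514087-113515495 (score 133.8). The last lies wholly within the HOX13 site with the second highest HOXA13 score, described above. The nearest double-mutant H3K27ac to these 3 sites stood 4499, 8369 and 16903 bp away. The interval of 3 of 3 is 43.9 to 100.0%, and the contrast with 3 of 9 was not tested. Over the whole wild-type list, sites of both factors underlay 2000 of the 4811 H3K27ac peaks without a double-mutant peak. They underlay 8360 of all 31933 wild-type H3K27ac peaks. A larger share among peaks without a double-mutant peak was thus also seen over the whole list and is not particular to the landscape. Among all wild-type H3K27ac peaks without a double-mutant peak, 53.4% overlapped a HOX13 site of any class. Among wild-type H3K27ac peaks on sites of both factors, 3 of 6 had no double-mutant peak in the landscape, or 50.0% (18.8 to 81.2%), against 23.9% over the whole list. The background again lay within the interval. The 3 peaks had scores of 113.8 to 171.4 and the 9 wild-type peaks also called in the double mutant 129.4 to 3100, so the ranges overlapped at the low end. Low scores move with peaks called in 1 genotype in the whole list as well, where the medians were 88.8 for wild-type peaks without a double-mutant peak and 512.5 for those with one. The part of peak strength in these absences was not tested.

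Of the other 3 sites of both factors with wild-type H3K27ac, all had it in the double mutant too. At the site with the highest HOX13 scores H3K27ac was called at chr2:113532592-113534625 in the double mutant (score 201.7) and at chr2:113532502-113534454 in wild type (score 257.9). These scores exceeded 45.6% of the double-mutant list and 44.6% of the wild-type list, near the middle of each, although the factors' peaks there were among the highest of theirs. At the site around chr2:113420828 H3K27ac was called at chr2:113421514-113422813 in the double mutant (1300 bp, score 115.9) and at chr2:113420622-113422468 in wild type (1847 bp, score 155.5). At the site around chr2:113435459 it was called at chr2:113434726-113436960 in the double mutant (2235 bp, score 176.6) and at chr2:113435442-113436621 in wild type (1180 bp, score 129.4). The wild-type call was thus the wider at the first of these 2 sites and the double-mutant call at the second.

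**Figure D4:**
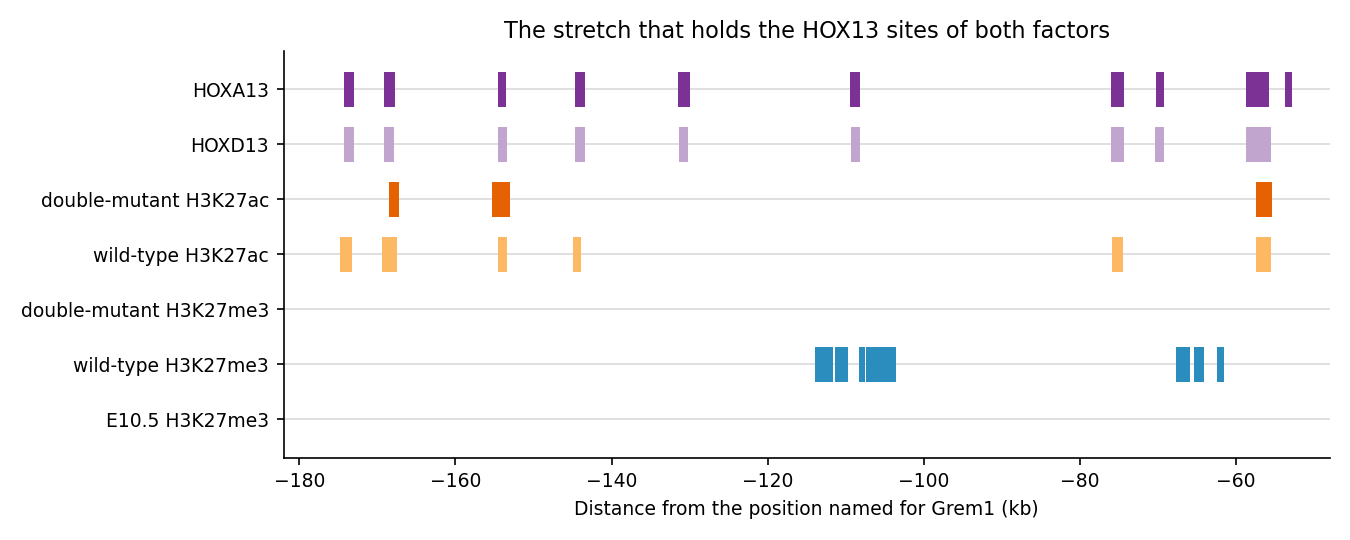
The stretch with the 9 sites of both factors, with the peaks of the 7 lists (rows) drawn to scale by distance in kb from the position named for Grem1. H3K27ac was called at 3 of these sites in the double mutant and at 6 in wild type, and H3K27me3 was called in this stretch in the E11.5 wild type alone among the 3 H3K27me3 lists.

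Counted over the 9 sites of both factors, H3K27ac was called at 3 in the double mutant, or 33.3% (12.1 to 64.6%), and at 6 in wild type, or 66.7% (35.4 to 87.9%). Over all such sites of the genome these shares were 37.6% in the double mutant and 43.7% in wild type. Sites with H3K27ac in wild type and none in the double mutant were 3 of 9 here, against 10.0% of all sites of both factors, a value below the interval of 12.1 to 64.6%. The sites are few and lie in 1 stretch of chromatin, and this difference was not tested. Sites with H3K27ac in both genotypes were also 3 of 9, against 33.7%. No site of both factors had H3K27ac in the double mutant alone, against 3.89% over the genome. Of the remaining 3 sites, chr2:113458503-113460019 and chr2:113519670-113520779 overlapped no mark in any list, and chr2:113480588-113481785 touched wild-type H3K27me3 by 45 bp. It was the single one of all 17 sites with H3K27me3 in wild type, against 11.2% of sites over the genome, and 0 of 17 had it in the double mutant, against 8.57%.

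The single-factor sites were few. Of the 4 HOXD13-only sites 3 had H3K27ac in both genotypes, or 75.0% (30.1 to 95.4%), against 38.0% of such sites over the genome, and the exception was the site 31.35 kb beyond the position named for Grem1. Of these 3 sites 2 had HOXD13 scores of 61.0 and 62.5, so with a minimum score of 100 in every list 1 of them is left, the one with a score of 341.6. Of the 4 HOXA13-only sites 1 had double-mutant H3K27ac, against 26.8% over the genome, and 0 had wild-type H3K27ac (interval 0 to 49.0%), against 25.8%. That peak, at chr2:113337543-113339166 (1624 bp, score 112.2), is the other double-mutant H3K27ac peak with no wild-type counterpart. It overlapped the HOXA13 peak with a score of 196.0 by 1105 bp, and the nearest wild-type H3K27ac peak to that site stood 39279 bp away. The background lay within the interval in each case, and groups of 4 sites allow no statement on the classes.

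The H3K27ac peaks with the highest scores lay outside the row of HOX13 sites of both factors. In both genotypes the highest was beyond Grem1, at chr2:113687163-113690172 in the double mutant (3010 bp, score 3100) and at chr2:113687204-113690114 in wild type (2911 bp, score 3100). It held the HOXD13-only site with a score of 341.6, and many peaks of each H3K27ac list share its score of 3100. It stood 85.19 kb in the double mutant and 85.23 kb in wild type from the wild-type H3K27me3 peak of the Grem1 stretch. No gene is assigned to it here, and Scg5 and Arhgap11a are the genes that follow Grem1. On the Fmn1 side the highest was chr2:113279930-113282596 in the double mutant (2667 bp, score 1426) and chr2:113279995-113281978 in wild type (1984 bp, score 1747), with no peak of either factor. With the peak of the Grem1 stretch these are the 3 highest of each genotype.

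The remaining peaks called in both genotypes lay on the Fmn1 side. At the HOXD13-only site around chr2:113237532 H3K27ac had a score of 527.1 over 2234 bp in the double mutant and of 130.4 over 1207 bp in wild type. At the HOXD13-only site around chr2:113268317 the scores were 311.5 in the double mutant and 350.9 in wild type. Away from any factor peak, H3K27ac at chr2:113378081-113379013 had a score of 107.6 over 933 bp in the double mutant, and at chr2:113377927-113379756 a score of 213.3 over 1830 bp in wild type. In all, HOX13 sites of any class underlay 7 of 11 double-mutant peaks, or 63.6% (35.4 to 84.8%), against 29.1% of the whole list, and 9 of 12 wild-type peaks, or 75.0% (46.8 to 91.1%), against 37.8%. Both background shares lay below the intervals, and the difference was not tested. With a minimum score of 100 in every list, HOX13 sites overlapping H3K27ac were 5 in place of 7 in the double mutant. In wild type they were 7 in place of 9. The sites lost were the HOXD13-only sites with scores of 61.0 and 62.5. The H3K27ac peaks stayed at 11 and 12, since their lowest scores were 107.6 in the double mutant and 113.8 in wild type. No interval or whole-list share was computed at that minimum, so a share above background is not shown there.

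H3K27me3 differed most between the lists inside the row of HOX13 sites. The double mutant had 2 H3K27me3 peaks in the landscape covering 8.58 kb, the E11.5 wild type had 9 covering 22.6 kb and E10.5 had 2 covering 7.52 kb. Both double-mutant peaks were called in wild type, so 0 of 2 were absent from it, against 15.6% of the whole double-mutant list. Of the wild-type peaks 7 of 9 had no double-mutant peak, or 77.8% (45.3 to 93.7%). The background was 51.8% of the whole wild-type list and 30.4% without the X chromosome, on which the wild-type list is much longer than the double-mutant one. The same 7 peaks had no E10.5 peak, against 59.6% of the whole wild-type list and 50.2% without the X chromosome. Either count was 4 in place of 7 with a minimum score of 100, with lists of equal length or with neighbouring peaks joined. The number of wild-type peaks in the landscape also fell under these settings, and no share or interval was computed for them. Peaks absent from both other lists made up 42.1% of the whole wild-type list and 24.7% without the X chromosome. The background shares of 51.8%, 59.6% and 50.2% lay within the interval of 45.3 to 93.7%. Those of 30.4%, 42.1% and 24.7% lay below it, and no difference was tested. Both E10.5 peaks were called in the E11.5 wild type, so 0 of 2 were absent, against 12.9% of the E10.5 list.

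These 7 peaks formed 2 blocks and are neighbours rather than separate observations. They covered 12.3 kb, which is 54.3% of wild-type H3K27me3 in the landscape. The first block ran over chr2:113476063-113486429 and held 4 peaks with scores of 64.0 to 485.4, the highest being chr2:113482658-113486429 and the next chr2:113476063-113478401 (score 333.4). It enclosed the HOX13 site at chr2:113480588-113481785, which lay in the space between the second and the third of its peaks apart from the 45 bp it shared with the third. The nearest H3K27ac to this block was 39.10 kb away in the double mutant and 27.66 kb in wild type. The second block ran over chr2:113522332-113528391 and held 3 peaks with scores of 50.9 to 180.8, the highest at chr2:113522332-113524087. It lay between 2 HOX13 sites without touching either, 1.55 kb from the one at chr2:113519670-113520779 and 2.84 kb from the one with the highest scores. Its nearest H3K27ac, at that last site, was 4.20 kb away in the double mutant and 4.11 kb in wild type. The blocks were called in 1 of 3 libraries, and 3 of their peaks scored below 100. H3K27me3 peaks scoring below 485.4, the highest in either block, made up 64.2% of the wild-type list, so these are calls of low to middle rank.

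H3K27ac of both genotypes and HOXD13 had peaks in every 100-kb bin of the interval, whereas HOXA13 had none in the first bin or the last 2. How concentrated each list was in the middle was not measured. In 100-kb bins, counted by peak centre from the Fmn1 end, HOXA13 had 0, 2, 5, 6, 0 and 0 peaks and HOXD13 had 1, 1, 4, 5, 1 and 1. H3K27ac had 2, 3, 3, 1, 1 and 1 peaks in the double mutant and 1, 2, 5, 2, 1 and 1 in wild type. The double mutant had fewer H3K27ac peaks than wild type in the bins that hold the row and more in the 2 bins before it, while the last 2 bins had the same number in both genotypes. These differences are the 2 double-mutant and 3 wild-type peaks called in 1 genotype that were described above. Their numbers did not set the landscape apart from the whole lists.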

How the data were processed

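Each of the 7 immunoprecipitated libraries has 1 deposited peak list, in BED format with a score per peak. Per the submitters' processing notes, alignment used Bowtie 0.12.7, peak calling used MACS 1.4, and the build was mm9. Each deposited list is named for its library and an input, so calling was done library by library. The deposited score has no normalization between lists. Groups were taken from the sample titles. The reference at hand is of GRCm38, and its chromosome 1 is shorter than the last peaks of all lists, so the peaks were kept on mm9 and no coordinate was converted. Positions count from 1.

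A shared base pair was enough for overlap. Sites are unions of overlapping peaks of the factors, made over the whole genome, and background shares were computed over the whole lists. Intervals are Wilson 95% intervals (SciPy 1.17.1, Python 3.11.15) and cover counting error only. Overlap counting was tested on simulated intervals. No test across libraries was made, with 1 library per group. The peaks named are those of the Grem1 stretch, the 3 highest scores of each list, peaks called in 1 genotype or stage (all of them up to 5, otherwise the 3 highest) and the 3 highest sites of both factors. Others were named after their values were seen, to account for the members. The landscape, the members and the lists were chosen with earlier results of these data known. Input libraries were not analysed here.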

Additional observations from a re-analysis of the deposited data

How the results depend on the processing

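The counts of shared and single HOX13 peaks, of H3K27ac peaks called in 1 genotype, of H3K27me3 peaks called in 1 list, of marked HOX13 sites and of peaks in the Grem1 stretch were recomputed under 9 alternatives. These were a minimum score of 100, a minimum overlap of 50% of either peak, peaks within 1000 bp counted as overlapping, lists of equal length, joining of peaks closer than 1000 bp, 50 kb off or added at each end, and a Grem1 stretch of 10 or 25 kb on each side. Of 154 recomputed counts 142 were identical and 144 lay within 1.5 times the reported value. The width of the Grem1 stretch was varied for the counts of that stretch alone. Those counts use neither the overlap rule nor the ends of the landscape. The 50% overlap, the distance of 1000 bp and the moved ends could therefore not change them, and these values are among the identical ones. The count of wild-type H3K27me3 peaks absent from the double mutant, and that of those absent from E10.5, was 4 with the minimum score, 4 with equal list lengths and 4 with joined peaks, against 7. The count of HOX13 sites overlapping wild-type H3K27me3 was 0 with the minimum score, 0 with 50% overlap and 0 with equal lengths, against 1. With 50 kb taken off each end, 1 double-mutant H3K27ac peak was absent from wild type, against 2, since the interval then left out the peak at the Fmn1 end. No paired analysis was possible because each group holds 1 library. Depth is unknown, and a peak absent from a list can stand for a shallower library as well as for less of the mark.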

Other observations

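The surroundings of the landscape were looked at after its values were seen. The nearest H3K27ac peak before the Fmn1 end stood 815.63 kb from it in the double mutant and 631.05 kb in wild type, and the nearest past the other end stood 249.76 kb away in the double mutant and 249.92 kb in wild type. No H3K27ac was therefore called within these distances on either side. Gaps between H3K27ac peaks over the genome were not computed, so these distances have no background. The wild-type peak before the Fmn1 end had a low score of 58.4. H3K27me3 and both HOX13 factors had nearer peaks outside the landscape. Past the far end an H3K27me3 peak was called at chr2:113837025-113844927 in the double mutant (score 3100), at chr2:113835748-113845415 in the E11.5 wild type (score 3100) and at chr2:113836418-113839261 at E10.5 (score 830.0). A HOXA13 peak at chr2:113844451-113846391 (score 505.2) and a HOXD13 peak at chr2:113844568-113846341 (score 692.1) overlapped its edge in the E11.5 lists. Before the Fmn1 end, HOXA13 at chr2:113080563-113081698 (score 375.1) and HOXD13 at chr2:113080411-113081777 (score 459.6) shared a further site, 68.22 kb outside the landscape. Sites of both factors therefore also lay on either side of the landscape.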
